A study of Mus musculus with 36 samples.

Results

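Doxycycline (Dox) was used to switch on the KOS transgenes in secondary mouse embryonic fibroblasts (MEFs), and the cultures of day 3 are described here. The members were 4 of the 36 arrays of the series: 2 of cultures labelled Dox+Tmx- (doxycycline at 1.5 µg/ml, no tamoxifen) and 2 of cultures labelled Dox-Tmx- (neither drug). The change on day 3 was set against the same change on day 1, which also rested on 2 arrays per group. Day 6, and day 3 with tamoxifen (200 nM) in both groups, served as further points of reference, with 2 arrays per group. So did embryonic stem (ES) cells labelled v6.5 and wild MEFs labelled Tmx-, with 2 arrays each. All secondary MEFs, with and without doxycycline, carried the transgene labelled 2ndMEF-KOS-ZERT2, came from a C57Bl/6 x 129 hybrid background, were labelled as 1 clone and were grown in ES medium with LIF, a cytokine used to keep ES cells undifferentiated. Every array was hybridised with the sample, labelled with Cy3, and with 1 shared Cy5 reference that combined ES cell RNA with RNA pooled from 11 cell lines. A level below is log2 of sample over reference, and a change is the difference of 2 such levels, Dox+ minus Dox-.

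KOS stands for Klf4, Oct4 and Sox2, transcription factors that together turn fibroblasts into induced pluripotent stem cells. In fibroblasts they are known to silence fibroblast genes and raise epithelial and proliferation genes early, and most genes of the pluripotent network later. Secondary MEFs are fibroblasts derived from embryos made with reprogrammed cells, so that fibroblasts descended from those cells hold the same inducible transgenes. Whether every cell of these cultures held them was not checked here. ZERT2 is a Zscan4 protein fused to a receptor domain that tamoxifen compounds switch on. No tamoxifen was given in the day 3 cultures described here, so no ligand of the fusion protein was added to them.

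The files name 42006 probes of 60 bases by identifier only, and 33099 were tested, namely those whose Cy3 signal stood well above background in both replicates of some group. Gene names came from the probes' sequences: 306 tested probes matched exactly 1 gene's RefSeq promoter window (GRCm38.p6, 250 bases before to 50 after a start, at least 30 bases matched), and 197 of them lay within the span of a single gene on the probe's strand, for 191 genes. The exon and UTR structure of these genes was not analysed here, and a match within a gene's span does not say which transcript was measured. Only promoter windows were searched, so matches elsewhere in the genome are not known, and bases past a window's edge were not compared. The names Chil5, Il17rc and Gm3194, used below, rest on 36, 33 and 31 matched bases of 60. The transgenes could not be checked in this way, because none of the reprogramming factors was among the 191 genes. Of 143 genes in 11 lists of markers (pluripotent cells, fibroblasts, epithelium, cell cycle, other cell types), 1 was placed, Acta2, so the labelled cell types were not checked against their markers.

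The probes below carry the results that could be tied to genes, and the first 30 bases of the stretch matched in GRCm38.p6 are given for each, 5′ to 3′. The first 4 belong to genes that were higher with doxycycline on day 3, and the last 4 to genes that were lower. Homer2 lies on the minus strand at chr7:81609895-81609924, Fam180a on the minus strand at chr6:35313025-35313054, Abhd6 on the plus strand at chr14:8055589-8055618 and Plet1 on the plus strand at chr9:50505002-50505031. C1qtnf3 lies on the plus strand at chr15:10978653-10978682, Cyba on the minus strand at chr8:122432912-122432941, Podxl2 on the minus strand at chr6:88842770-88842799 and Bcl11a on the plus strand at chr11:24172868-24172897. The Cyba probe covers the annotated start of its gene, and those of Fam180a and Podxl2 lie 252 and 183 bases from the annotated end of theirs. Other probes lie far from that end in the genome: 9395 bases for Homer2, and 14988, 10996 and 10491 for Acta2, H3f3a and Mff, named below.
Homer2: ggccctcgggtgccttctgctgcgtggcat
Fam180a: cccaaagccatgaagaagactctgtatttt
Abhd6: tcattgtcgactttttagcttctgtgcata
Plet1: ctactagcagatttccactgtgcccagacc
C1qtnf3: ttctgctctttgaaactaagtgacaaggaa
Cyba: ggccgatcagtgaggacttgcgaagtgggc
Podxl2: tcggacgtgttcgaggaggacactcacctg
Bcl11a: ttgtgatgttttctgacagtagcctccaag

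Cultures with and without doxycycline differed at most measured probes by day 3. At an adjusted p under 0.05, 10275 probes (31% of those tested) were higher and 8936 (27%) were lower with doxycycline, 58% in all. Which direction led depends on the scaling: 8837 were higher and 10935 lower with the ratio that Agilent Feature Extraction, the scanner's software, computes itself, and 6272 higher and 7123 lower with the authors' deposited value table. Most of these changes were small: 2678 probes (8.09%) were higher and 1482 (4.48%) lower by at least 2-fold, and 1014 (3.06%) and 320 (0.967%) by at least 4-fold. In this scaling rises reached further than falls, with 443 probes (1.34%) higher and 65 (0.196%) lower by at least 8-fold. Counts at 4-fold and 8-fold were not recomputed with other scalings. With the ratio of Feature Extraction the counts at 2-fold were 4198 higher and 3107 lower. The median change over all tested probes was -0.00 on the log2 scale. The normalization within each array (loess) centres the ratios near 0, so this median is largely set by the scaling. It was -0.109 with the ratio of Feature Extraction and -0.0757 with the deposited value table. Changes were tested with limma on all 36 arrays, with Benjamini-Hochberg adjustment over all tested probes, and every adjusted p below comes from that fit. Fewer cells carrying a transcript and less of it per cell cannot be told apart in these bulk samples.

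The 2 arrays of a group came from 1 slide. Dox+ and Dox- cultures of day 3 lay on different slides scanned on the same day, those of day 1 on 2 other slides scanned on another day, so that slide and doxycycline cannot be told apart. Whether replicates were grown separately is not stated in the labels. The p-values cover no more than the spread between the 2 samples of a group, pooled over all 18 groups, and that spread may be technical. The SE of a probe therefore does not rest on its day 3 arrays alone. The Dox+ arrays of day 3 had 74.51% and 72.66% of their probes well above background, and the Dox- arrays 70.15% and 68.43%. Precision is limited by the number of arrays. For 19 pairs of tested probes with identical sequences the day 3 change differed by a median of 0.05 and at most by 0.15 on the log2 scale, and 18 pairs had the same call.

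Among the 191 genes with a name, 28 were higher and 43 lower with doxycycline on day 3, or 37.2% against the 58% of all probes, and their median change was -0.04 on the log2 scale. By at least 2-fold, 7 were higher and 6 were lower. The 191 genes were not picked for how they moved, but by where their probes happen to match, and are no sample of a pathway. Changes ran from -1.83 to 4.10 on the log2 scale.

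Homer2, which encodes a scaffold protein that binds metabotropic glutamate receptors at synapses, rose most among the named genes. Its level was 3.79 and 3.84 in Dox+ cultures of day 3, against -0.30 and -0.26 in Dox- cultures. The groups lay far apart, the change being 4.10 ± 0.05 (SE; adjusted p = 2.4e-27), or 17.1-fold. On day 1 the change had already been 3.13 ± 0.05, and the increase between the days passed the test (difference 0.97 ± 0.07, adjusted p = 2.1e-11). The level with doxycycline was above that of ES cells (1.08 and 1.11) as well as of wild MEFs (-0.67 and -0.69).

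Fam180a was higher with doxycycline on both days, but less so on day 3. Dox+ cultures of day 3 had levels of 2.08 and 1.99, against -0.26 and -0.29 in Dox- cultures, a change of 2.31 ± 0.11 (SE; adjusted p = 2.6e-15). On day 1 the change was 4.06 ± 0.11, so it had shrunk by day 3 (difference -1.75 ± 0.16, adjusted p = 1.7e-09). Both arms took part in this: with doxycycline the levels of day 1 had been 2.54 and 2.60, and without it -1.44 and -1.54. Most of the shrinkage lay in the cultures without doxycycline, where Fam180a rose between the days. Fam180a was not well above background in ES cells and was at 1.03 and 1.07 in wild MEFs.

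Abhd6, a hydrolase that breaks down the endocannabinoid 2-arachidonoylglycerol, was among the rises absent on day 1. Its level was 1.59 on both Dox+ arrays of day 3, against 0.16 on both Dox- arrays. The change of 1.43 ± 0.05 (SE; adjusted p = 6.0e-19) stood against 0.46 ± 0.05 on day 1, with a 95% interval of 0.36 to 0.55. Absence on day 1 is used throughout for a change called at 2-fold or more on day 3, with a called difference between the days in the same direction, whose day 1 interval lies within 1.5-fold either way (0.585 on the log2 scale). It therefore allows a small change on day 1, as Abhd6 had.

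Chil5, a chitinase-like gene, was detected on day 3 with doxycycline only. Its level was 0.93 and 1.14 in Dox+ cultures of day 3, against -0.08 and -0.13 in Dox- cultures, where it was not well above background on either array. On that ground it was at least 1.65-fold higher (change 1.14 ± 0.10 on the log2 scale, adjusted p = 2.2e-10). On day 1 it was below background in both arms, so its day 1 change has no level behind it. By day 6 the levels with doxycycline were 1.71 and 1.77, while ES cells and wild MEFs had none well above background.

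Plet1, a surface protein of early embryonic and trophoblast cells, was the single ES-high gene among those named as rising. Dox+ cultures of day 3 had levels of -1.22 and -1.35, against -2.24 and -2.33 in Dox- cultures. The change of 1.00 ± 0.22 (SE; adjusted p = 0.00036) fell just short of 2-fold. On day 1 the levels overlapped (-1.97 and -2.09 with doxycycline, -2.14 and -1.91 without), with a change of -0.00 ± 0.22. The difference between the days, 1.00 ± 0.31, had an adjusted p of 0.012, of 0.0537 without Dox-Tmx- replicate 2 of day 1, and of 0.16 with the local backgrounds as deposited. With tamoxifen in both groups the day 3 change of Plet1 was 2.37 ± 0.22. By day 6 it was 2.56 ± 0.22, though the Dox- arrays of that day disagreed (-1.05 and -2.36), and ES cells lay at 1.86 and 1.93.

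The other named rises were smaller. Mllt6, a PHD finger gene known as a fusion partner in leukaemia, was at 0.34 on both Dox+ arrays, against -0.91 and -0.89 on the Dox- arrays, a change of 1.24 ± 0.05. Crxos, annotated opposite Crx, changed by 1.18 ± 0.06 and was absent on day 1 by the rule above (0.47 ± 0.06). The gene 4930523C07Rik changed by 1.16 ± 0.06. Unc13a, which primes synaptic vesicles, changed by 0.69 ± 0.08 and Zbtb22, a zinc finger gene, by 0.68 ± 0.06. All of these had adjusted p-values of 2.8e-08 or lower. A call and no overlap between the groups of day 3 were part of the rule by which genes were named.

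C1qtnf3, a secreted protein of the C1q and tumour necrosis factor family, fell with doxycycline. Its level was 0.77 and 0.71 in Dox+ cultures of day 3, against 2.08 and 2.09 in Dox- cultures. The change was -1.34 ± 0.12 (SE; adjusted p = 2.6e-10), and wild MEFs lay higher still, at 3.13 and 3.20. On day 1 it had been -0.82 ± 0.12, and the difference between the days (-0.52 ± 0.16, adjusted p = 0.013) did not pass without Dox+Tmx- replicate 2 (adjusted p = 0.0592) or Dox-Tmx- replicate 2 (adjusted p = 0.0667) of day 1, nor with the backgrounds as deposited (0.493), the Feature Extraction ratio (0.31) or the deposited value table (0.0695). By day 6 the change was -2.27 ± 0.12.

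Cyba, the membrane subunit of the NADPH oxidase that makes superoxide, fell on day 3 and was among the changes absent on day 1. Dox+ cultures had levels of -0.85 and -0.92, against 0.28 and 0.53 in Dox- cultures, a change of -1.28 ± 0.16 (SE; adjusted p = 1.4e-07). On day 1 the groups lay close without overlap, at 0.12 and 0.21 with doxycycline and 0.54 and 0.23 without, with a change of -0.22 ± 0.16 (95% interval -0.55 to 0.11). Levels in ES cells, -1.61 and -1.32, were below both groups, and those in wild MEFs, 1.36 and 1.20, above both.

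Podxl2, a sialomucin of the CD34 family, was the other named fall absent on day 1. Its level was -0.29 and -0.22 in Dox+ cultures of day 3, against 0.94 and 0.92 in Dox- cultures, a change of -1.19 ± 0.07 (SE; adjusted p = 1.3e-13). The day 1 change was -0.37 ± 0.07, with levels of -0.12 and -0.04 with doxycycline and 0.29 and 0.28 without. Most of the widening lay in the cultures without doxycycline, where Podxl2 rose between the days.

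Bcl11a, a zinc finger repressor of transcription, turned round between the days. On day 3 its levels were -0.66 and -0.74 in Dox+ cultures, against 0.04 and 0.12 in Dox- cultures, a change of -0.78 ± 0.05 (SE; adjusted p = 2.9e-12). On day 1 it was higher with doxycycline, 0.07 and 0.05 against -0.24 and -0.28, a change of 0.32 ± 0.05 (adjusted p = 1.5e-05). The groups did not overlap on either day.

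Of the remaining named falls, Il17rc, a subunit of the interleukin 17 receptor, changed by -1.13 ± 0.05 (SE), and Gm1673, a predicted gene, by -1.30 ± 0.07. Gm3194 changed by -1.83 ± 0.08, but it belongs to a family of predicted genes with close copies, so its probe may read several of them. Acta2 encodes smooth muscle actin, a mark of contractile fibroblasts. Its probe lies 14988 bases from the annotated end of the gene, and which transcript it read was not tested. The Acta2 probe was at -0.14 and -0.12 with doxycycline, against 0.44 and 0.73 without, a change of -0.72 ± 0.11 (adjusted p = 5.2e-06). Its difference from day 1 did not pass the test (adjusted p = 0.12), and did so without Dox-Tmx- replicate 1 of day 3 (adjusted p = 0.0323). H3f3a, the replication-independent histone H3.3, changed by -0.69 ± 0.11, with possible signal from near-identical copies, and Mff, a receptor for the mitochondrial fission machinery, by -0.63 ± 0.06. The difference between the days for H3f3a, -0.44 ± 0.15 (adjusted p = 0.025), did not pass without either Dox+ array of day 3, Dox- replicate 2 of day 3, or replicate 2 of either group of day 1 (adjusted p between 0.0548 and 0.128). For 6 genes several probes were placed, and those of H4c8 disagreed (0.31 and -0.28 on day 3).

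**Figure D1:**
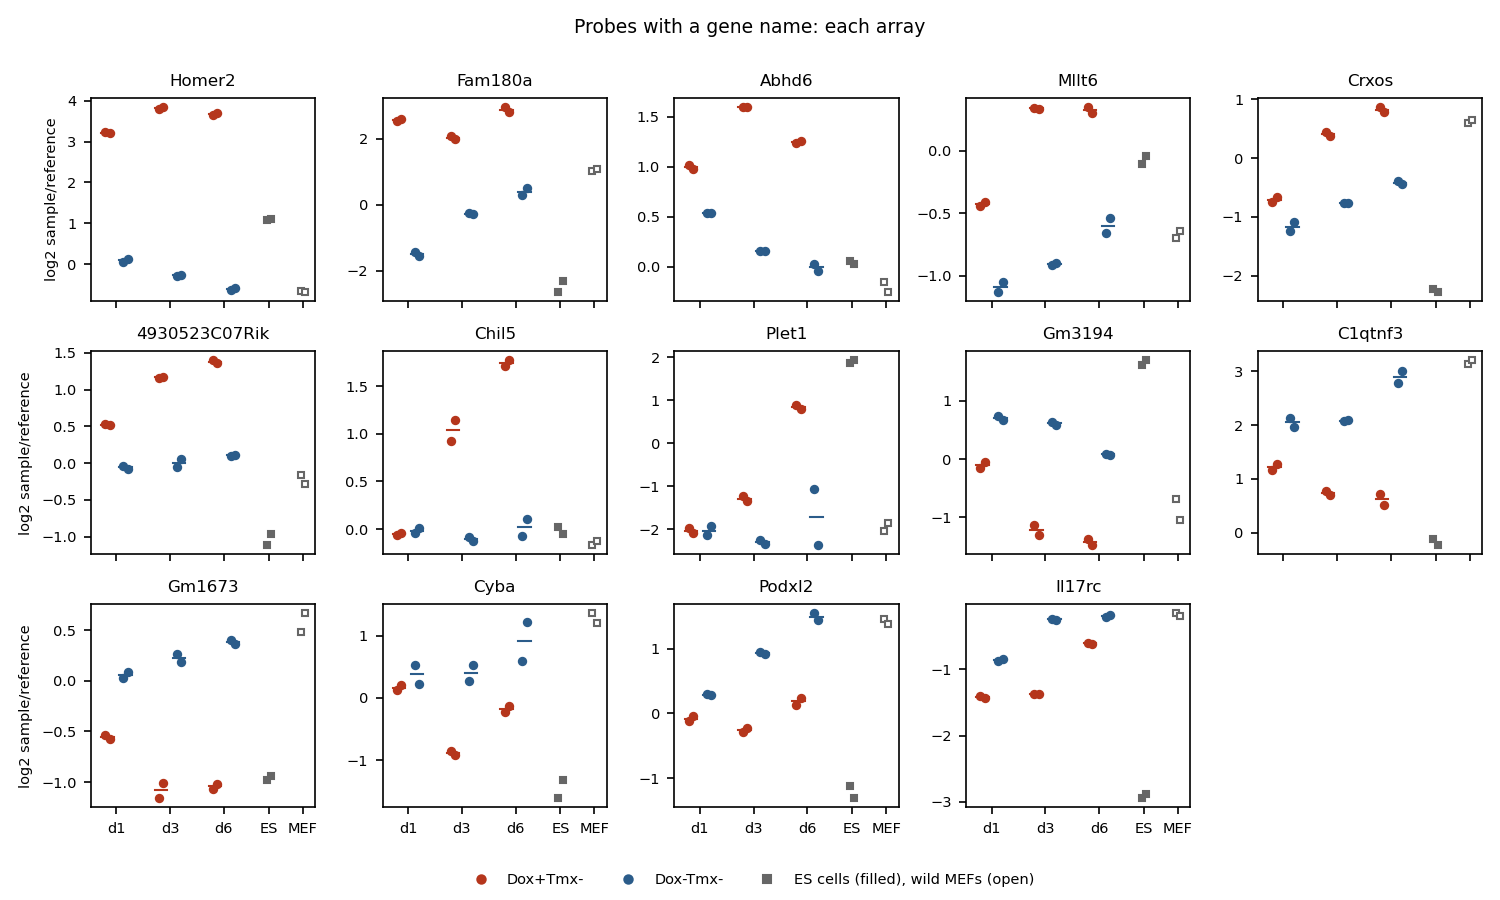
Level (log2 sample over reference) of 14 probes with a gene name on each array of Dox+Tmx- (red, left of each pair) and Dox-Tmx- cultures (blue) on days 1, 3 and 6 (d1, d3, d6), with ES cells (filled squares) and wild MEFs (open squares). Points are single arrays and short lines means of 2. Homer2 was apart on all days, while Plet1, Chil5 and Cyba overlapped or lay close on day 1 and separated on day 3.

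The largest changes lay in probes with no gene name. Z00063643-1 had levels of 1.80 and 1.81 in Dox+ cultures of day 3, against -6.89 and -6.85 in Dox- cultures, a change of 8.67 ± 0.07 (SE; adjusted p = 6.8e-30). Its day 1 change was 2.15 ± 0.07, and the level of day 3 was above the 1.50 and 1.56 of ES cells, while wild MEFs were not well above background. Z00074466-1 was at 5.13 and 5.09 with doxycycline, against -3.25 and -3.14 without, a change of 8.31 ± 0.10. This probe was not ES-high: ES cells lay at -1.84 and -1.79 and wild MEFs at -1.37 and -1.09, and its change had been 6.74 ± 0.10 on day 1.

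Z00035949-1 fell most. Its level was -5.91 and -5.80 in Dox+ cultures of day 3, against 2.13 and 2.23 in Dox- cultures, a change of -8.03 ± 0.08 (SE; adjusted p = 5.9e-29) that compared with -4.13 ± 0.08 on day 1. ES cells were at -4.41 and -4.46, so the level with doxycycline was below theirs. Z00007756-1 was at -2.58 and -2.69 with doxycycline, against 4.30 and 4.31 without, a change of -6.94 ± 0.08. On day 1 the change was -2.15 ± 0.08, since the level with doxycycline was then still 2.27 and 2.26. ES cells, at 0.70 and 0.74, were far above the level of the Dox+ cultures of day 3.

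**Figure D2:**
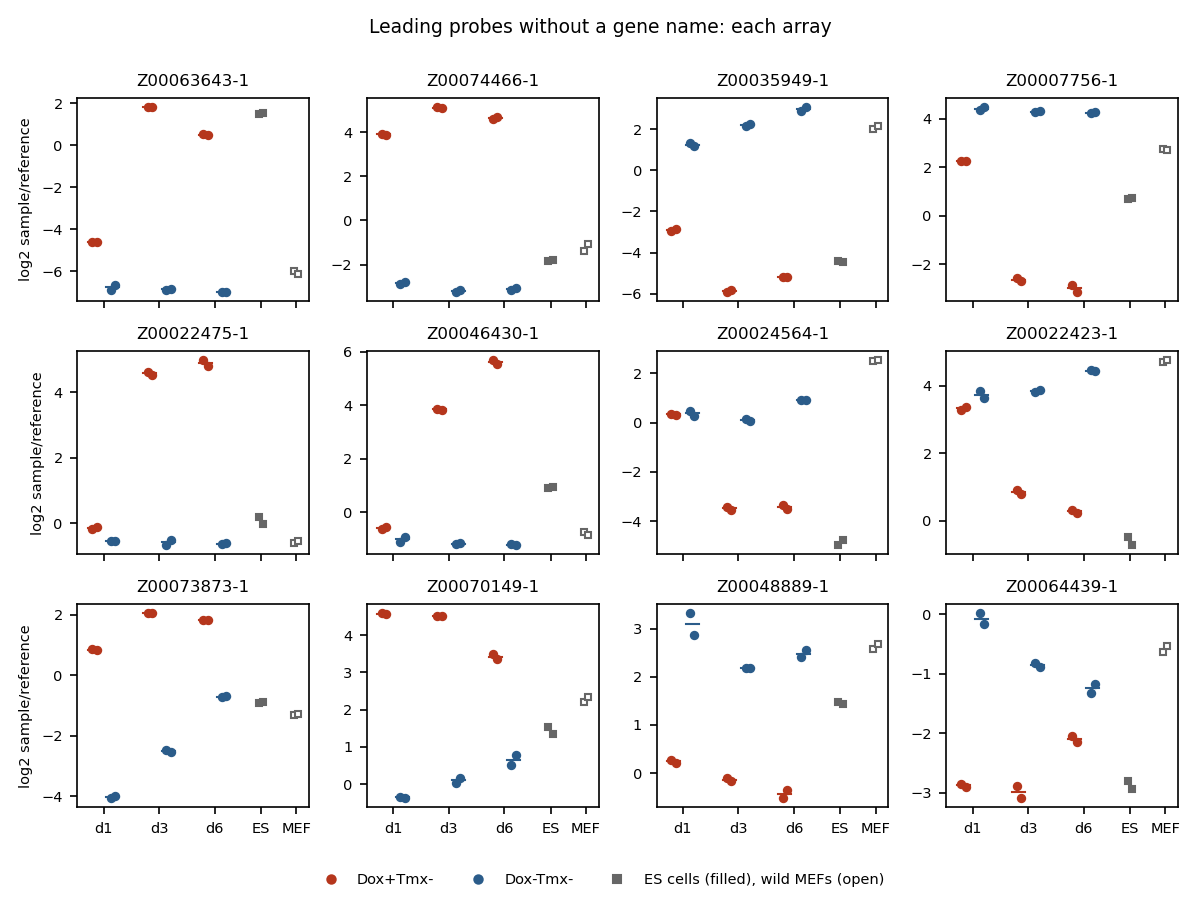
Level (log2 sample over reference) of 12 leading probes without a gene name on each array, drawn as for the named genes. The top row holds the largest rises and falls of day 3, the middle row those that met the rule for absence on day 1 and the bottom row changes that were larger on day 1. Z00063643-1 reached 1.80 and 1.81 in Dox+ cultures of day 3, slightly above ES cells (1.50 and 1.56).

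Most of the large changes of day 3 were already under way on day 1. Of the 2678 probes higher by at least 2-fold on day 3, 1177 were higher by at least 2-fold on day 1 and 1013 were called higher by less. On day 1, 432 were not called and 56 were called lower. Of the 1482 probes lower by at least 2-fold, 507 had been lower by at least 2-fold on day 1, 726 by less, 199 were not called and 50 were called higher. The background on day 1 was 46.3% of probes called, 23.5% higher and 22.8% lower, with 1473 (4.45%) higher and 716 (2.16%) lower by at least 2-fold. A change not called on day 1 is not shown to be absent then, so the difference between the days was tested as well.

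The size of the change was compared between the days by a test of the difference. The difference, day 3 minus day 1, was called for 12991 probes (39.2%), upwards for 22% and downwards for 17.3%. Downward differences led with the ratio of Feature Extraction (5580 up, 6474 down) and with the deposited value table (4447 up, 4883 down). Of the 2678 rises, 2159 were called larger on day 3, 134 smaller, and 385 were not called different. Among the 1482 falls the counts were 1168 larger, 56 smaller and 258 not called. The median rise was 1.68 on day 3 against 0.87 on day 1 for these rising probes, and -1.42 against -0.73 for the falling ones, on the log2 scale. These probes were chosen for their change on day 3, which favours a larger change on that day, so their counts and medians are a description. Of the probes chosen for a 2-fold change on day 1, 727 rises were larger and 386 smaller on day 3, and 255 falls were larger and 222 smaller.

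Changes absent on day 1 numbered 735 rises (2.22% of probes tested) and 383 falls (1.16%), out of 4160 changes of at least 2-fold (12.6%). Their median change on day 3 was 1.39 for the rises and -1.30 for the falls, while on day 1 it was 0.14 and -0.18. By the fitted change itself, 420 of the rises and 188 of the falls were not called on day 1, and most others were called in the same direction by less than the bound. Among the rises 164 had no signal well above background on either Dox- array of day 1, so that their day 1 change is only a lower bound or, for 68 of them that were also undetected with doxycycline, has no level behind it. In 519 rises and 377 falls all 4 day 1 arrays gave a detected signal. The counts follow the bound set on day 1. With a narrower bound on the day 1 interval they were 301 and 118, and with a bound of 2-fold 1286 and 816. With the ratio of Feature Extraction there were 376 rises, and 388 with the deposited value table.

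Z00022475-1 and Z00046430-1 had the largest rises that met the rule for absence on day 1. Z00022475-1 was at 4.63 and 4.54 with doxycycline on day 3, against -0.67 and -0.50 without, a change of 5.17 ± 0.08 (SE; adjusted p = 4.9e-25) against 0.40 ± 0.08 on day 1. Its levels in ES cells (0.17 and -0.02) and wild MEFs (-0.61 and -0.53) were far below. Z00046430-1 was at 3.88 and 3.82, against -1.20 and -1.16 in Dox- cultures, where it was not well above background on either array. It was at least 29.1-fold higher (change 5.03 ± 0.07 on the log2 scale), and reached 5.69 and 5.57 by day 6. On day 1 it was detected with doxycycline (-0.63 and -0.56) and not without, so the fitted day 1 change of 0.42 ± 0.07 is a lower bound and absence on day 1 is not shown for it.

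Z00024564-1 was the largest fall absent on day 1 among those named. Dox+ cultures of day 3 had levels of -3.41 and -3.57, against 0.16 and 0.06 in Dox- cultures, a change of -3.59 ± 0.08 (SE; adjusted p = 1.4e-21). On day 1 the groups overlapped (0.37 and 0.31 with doxycycline, 0.47 and 0.28 without) and the change was -0.04 ± 0.08, with an adjusted p of 0.76. Z00022423-1 was at 0.92 and 0.77, against 3.82 and 3.86, a change of -3.00 ± 0.07. Its day 1 change was -0.41 ± 0.07, and both probes were MEF-high, with wild MEF levels of 2.51 and 2.53 for Z00024564-1 and 4.71 and 4.75 for Z00022423-1.

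**Figure D3:**
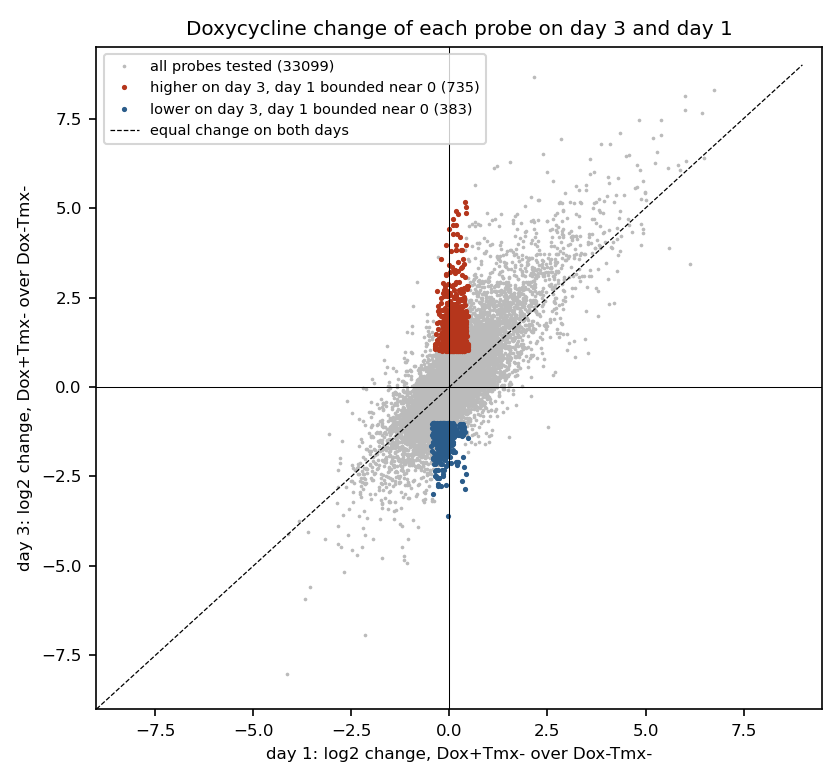
Change with doxycycline (log2, Dox+Tmx- over Dox-Tmx-) of each of 33099 probes on day 3 (vertical axis) and on day 1 (horizontal axis). Red points are the 735 rises and blue points the 383 falls absent on day 1, grey points all probes, and the dashed line marks equal changes. The coloured points stand in a narrow vertical band because the rule keeps the day 1 change within 1.5-fold.

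Rises and falls absent on day 1 differed in which cultures had moved. For the 735 rises the median change from day 1 to day 3 was 1.16 in Dox+ cultures and -0.12 in Dox- cultures, on the log2 scale. In the Dox+ arm 699 of the 735 were called upwards, against 26.9% of all probes, and in the Dox- arm 262 were called downwards, against 21.1%. For the 383 falls both arms moved: the median was -0.66 in Dox+ cultures and 0.53 in Dox- cultures. The Dox+ arm was called downwards for 302 (21.2% of all probes) and the Dox- arm upwards for 298 (21.9% of all probes), by at least 2-fold for 66 of the 383 (1.32% of all probes). The Dox+ arm moved further than the Dox- arm for 655 of the 735 rises and for 224 of the 383 falls. Among all changes of at least 2-fold on day 3 it did so for 2199 of 2678 rises and 811 of 1482 falls. The split is therefore not particular to the changes absent on day 1. The 2 arms of a probe were selected for their difference, so these values describe the split.

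**Figure D4:**
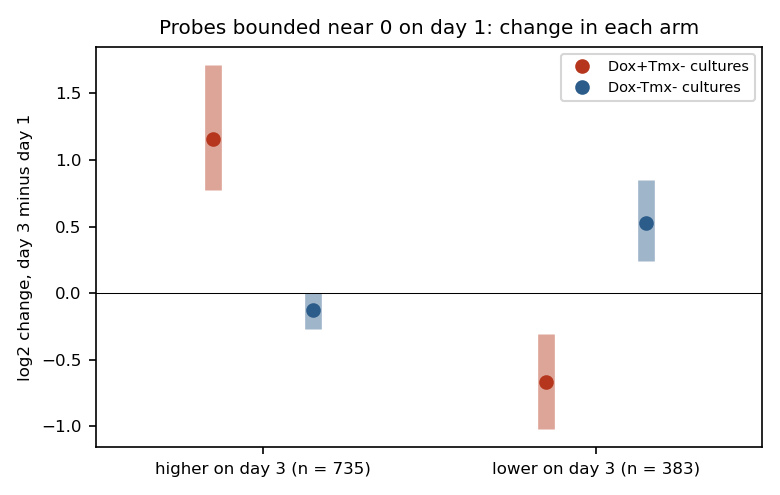
Change from day 1 to day 3 (log2) of the probes absent on day 1 in Dox+Tmx- cultures (red, left) and Dox-Tmx- cultures (blue). Points are medians and bars run over the middle 50% of probes. For the 735 rises the change lay in the Dox+ cultures (1.16 against -0.12), and for the 383 falls in both (-0.66 against 0.53).

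Some changes were larger on day 1. Of the 1473 probes higher by at least 2-fold on day 1, 22 were called lower on day 3, and of the 716 lower probes 18 were called higher. Z00073873-1 was at 2.05 on both Dox+ arrays of day 3, against -2.47 and -2.55 without doxycycline, a change of 4.56 ± 0.05 (SE) against 4.88 ± 0.05 on day 1. Its level rose in both arms between the days. Z00070149-1 was at 4.51 and 4.52, against 0.04 and 0.16, with a change of 4.42 ± 0.09 and 4.94 ± 0.09 on day 1. The difference of -0.52 had an adjusted p of 0.0013, and of 0.401 with the local backgrounds as deposited.

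Among the falls, Z00048889-1 was at -0.11 and -0.17 on day 3 with doxycycline, against 2.17 and 2.18 without. Its change was -2.32 ± 0.10 (SE), and -2.85 ± 0.10 on day 1. The difference of 0.53 ± 0.14 turned to -0.11 with the ratio of Feature Extraction and with the authors' deposited value table, so its direction depends on the scaling, and its adjusted p was 0.49 with the backgrounds as deposited. Z00064439-1 was at -2.88 and -3.09, against -0.82 and -0.88, with a change of -2.14 ± 0.10 and -2.80 ± 0.10 on day 1. Only 8 probes reversed a 2-fold change between the days, with 6 higher on day 1 and lower on day 3 and 2 the other way.

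The direction of the day 3 change followed the difference between ES cells and wild MEFs for part of the probes. ES-high and MEF-high are used for probes that differed between these cells by at least 4-fold at an adjusted p under 0.05. Of 1201 ES-high probes (3.63% of those tested), 385 (32.1%) were higher and 32 (2.66%) lower by at least 2-fold with doxycycline on day 3, with a median change of 0.45 on the log2 scale. For the 2507 MEF-high probes (7.57%) it was 252 (10.1%) higher and 703 (28.0%) lower, with a median of -0.44. Over all probes these shares were 8.09% and 4.48%. With the ratio of Feature Extraction 3052 probes were ES-high and 1133 of them rose. ES cells and wild MEFs were on different slides and scan days, and the ES RNA in the common reference was the same for all arrays.

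The shares are given by day beside those of all probes. Of the ES-high probes 14.2% were higher by at least 2-fold on day 1, 32.1% on day 3 and 30.9% on day 6. Of the MEF-high probes 11.1% were lower by at least 2-fold on day 1, 28.0% on day 3 and 36.9% on day 6. Over all probes 4.45%, 8.09% and 6.83% were higher on these days and 2.16%, 4.48% and 5.75% lower, so the shares of both classes and of all probes were larger on day 3 than on day 1. Rises absent on day 1 held 137 ES-high (18.6%) and 33 MEF-high probes (4.49%) among 735. Falls absent on day 1 held 213 MEF-high (55.6%) and 5 ES-high probes (1.31%) among 383. Of all tested probes 3.63% were ES-high and 7.57% MEF-high. Among all rises of at least 2-fold on day 3, 14.4% were ES-high, and among all such falls 47.4% were MEF-high. The remaining 565 rises and 165 falls were in neither class.

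**Figure D5:**
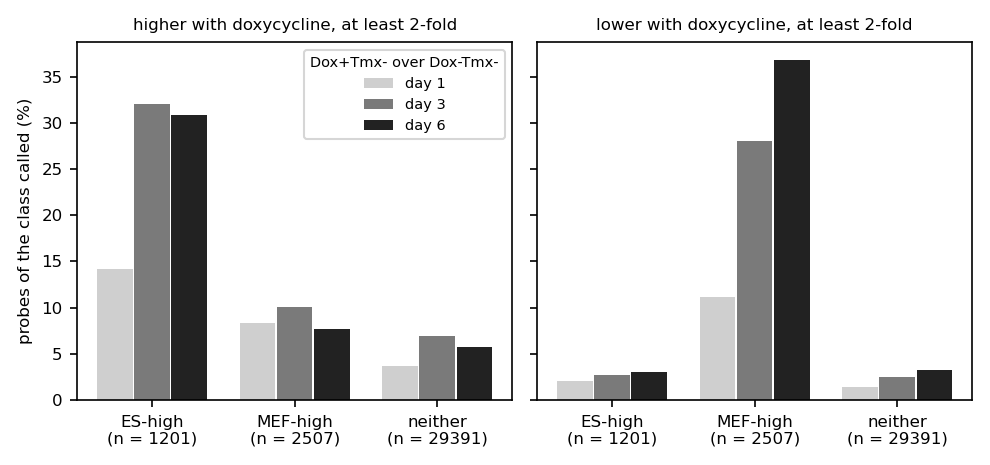
Share of ES-high, MEF-high and all other probes (%) that were higher (left panel) or lower (right panel) by at least 2-fold in Dox+Tmx- over Dox-Tmx- cultures on days 1, 3 and 6. ES-high probes rose for 14.2%, 32.1% and 30.9% over the 3 days and MEF-high probes fell for 11.1%, 28.0% and 36.9%.

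Of the 2678 probes higher by at least 2-fold on day 3, 385 (14.4%) were ES-high, 252 (9.41%) MEF-high and 2041 (76.2%) neither, against 3.63%, 7.57% and 88.8% of all tested probes. In the Dox+ cultures 1784 of the 2678 were at least 2-fold above ES cells by a called difference, 674 were within 2-fold of them and 220 at least 2-fold below (18.3% of all probes were above and 9.86% below). Among the 385 ES-high rises, 134 were within 2-fold of the ES level, 205 were still at least 2-fold below and 46 at least 2-fold above. Of the 1482 falling probes 703 (47.4%) were MEF-high. For these, 443 were still at least 2-fold above ES cells, 241 were within 2-fold and 19 at least 2-fold below.

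Part of the rises came from probes without a detected signal in the control cultures. With doxycycline on day 3, 1189 called rises were well above background on both Dox+ arrays and on neither Dox- array, and 353 of them were at least 2-fold higher by the lowest signal that counts as detected. The converse held for 262 falls, 33 of them at least 2-fold. Of the 1189 rises 691 had been detected on both Dox+ arrays of day 1 and 345 on neither. ES-high probes made up 82 of the 1189 (6.90%, against 3.63% of all tested probes), and 476 (40.0%, against 85.2%) were detected on both ES arrays. Probes undetected in a group are dimmer than most, and these shares are a description. Detection was wider on the Dox+ arrays of day 3 (74.51% and 72.66% of probes) than on the Dox- arrays (70.15% and 68.43%). The counts of 1189 and 262 therefore do not start from equal detection, and slide and doxycycline cannot be told apart in it. How often all probes were detected in 1 arm only was not counted.

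The day 3 change was also measured with tamoxifen in both groups, on other arrays. Of 4160 probes called at 2-fold or more, 4159 were called in the same direction in the Dox+Tmx+ against Dox-Tmx+ cultures of day 3, where 60.7% of all probes were called (32.9% higher, 27.7% lower), and the median absolute difference between the 2 changes was 0.14 on the log2 scale. Plet1 was an exception among the named genes, at 2.37 with tamoxifen and 1.00 without. Across 33099 probes Pearson's r between the 2 changes was 0.984, and these arrays lay on the same slides as those without tamoxifen.

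By day 6 most of these changes were still present. Of the 2678 rises of day 3, 2580 were called higher and 18 lower on day 6 (28.9% and 25.5% of all probes), and 1853 of them were still at least 2-fold higher (6.83% of all probes). Of the 1482 falls 1460 were called lower, 1148 by at least 2-fold (5.75% of all probes). The rises absent on day 1 were called higher on day 6 for 703 of 735, with a median of 1.14 against 1.39 on day 3. The falls absent on day 1 were called lower for 380 of 383, with a median of -1.75 against -1.30. Between day 3 and day 6 the change was called larger for 169 of those falls and smaller for 68, and larger for 138 of the rises and smaller for 352 (over all probes it was called upwards for 11.3% and downwards for 15.9%).

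The probe sequences were searched for the usual signals before the end of a transcript. AATAAA or ATTAAA, on the probe's own strand, occurred in 12.5% of the rises and 13.3% of the falls, against 10.3% of all tested probes.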

How the data were processed

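The authors' deposited scanner files give, per the file headers, spot intensity and local background intensity from Agilent Feature Extraction 9.5.1.1, without normalization. Sample RNA was in Cy3 and the reference in Cy5, per the labels, with no dye swap. The log10 ratio of red over green in the same deposited files (sign turned) and the deposited series matrix, read as log10 sample brightness from its correlation with the Cy3 signal (0.977 to 0.994; medians 2.37 to 2.46), served as alternatives; how the matrix was scaled or centred is not given in the sources used here.

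With limma 3.58.1 in R 4.3.3, background was corrected by normexp (offset 50), after the array's median had been put in place of outlying local backgrounds (as Feature Extraction flags them), followed by loess within arrays. Control spots were left out, non-uniform spots were set to missing (9 tested probes lacked 1 of the 4 day 3 arrays), and spots of a probe were averaged. The fit held 1 mean for each of 18 groups, with 18 residual and 5.05 prior degrees of freedom. Alternatives were other background corrections, no filter, fewer arrays, a replicate block, each array left out in turn, and other bounds on the day 1 change. The fit was tested on simulated data.

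Probes without a gene name were named by rule: in each direction the 2 with the largest day 3 change among called, non-overlapping probes well above background in the higher group, among all probes, among those absent on day 1 and among those with a larger change on day 1. Of the genes with a name the first 10 in each direction by the same rule, the absent ones and the listed Acta2 were named. Of several probes of a gene the brightest was used. Sequences and gene spans are from RefSeq. The lists, rules and comparisons were chosen with earlier results of these data known.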

Additional observations from a re-analysis of the deposited data

Results flagged for a closer look

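The change with doxycycline differed between day 3 and day 1 by a test of the difference itself (limma, Benjamini-Hochberg adjusted p under 0.05) for the following named probes and genes, given as day 3 minus day 1 on the log2 scale. Members named as absent on day 1, or as larger on day 1, were chosen by rules that require a called difference. For them passing this test was fixed by the choice and is no further result. Day and scan day cannot be told apart in these differences.

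Among probes without a gene name the difference was upwards by 6.52 for Z00063643-1, 1.57 for Z00074466-1, 4.77 for Z00022475-1, 4.60 for Z00046430-1, 0.53 for Z00048889-1 and 0.66 for Z00064439-1, the fall of Z00064439-1 being smaller on day 3. For Z00048889-1 the direction depends on the scaling (-0.11 with Feature Extraction's ratio and with the series matrix). It was downwards by -3.90 for Z00035949-1, -4.79 for Z00007756-1, -3.56 for Z00024564-1, -2.58 for Z00022423-1, -0.32 for Z00073873-1 and -0.52 for Z00070149-1, the rises of Z00073873-1 and Z00070149-1 being smaller on day 3. The day 1 level without doxycycline was below background for Z00046430-1.

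Among genes with a name the difference was upwards by 0.97 for Homer2, 0.98 for Abhd6, 0.58 for Mllt6, 0.71 for Crxos, 0.58 for 4930523C07Rik, 1.18 for Chil5, 1.00 for Plet1, 0.65 for Unc13a and 0.37 for Zbtb22. It was downwards by -1.75 for Fam180a, -1.02 for Gm3194, -0.52 for C1qtnf3, -0.69 for Gm1673, -1.07 for Cyba, -0.81 for Podxl2, -0.57 for Il17rc, -1.10 for Bcl11a, -0.44 for H3f3a and -0.32 for Mff. With the local backgrounds as deposited, the differences of Z00070149-1, Z00048889-1, Plet1 and C1qtnf3 did not pass (adjusted p 0.401, 0.49, 0.16 and 0.493). The change of Fam180a was a smaller rise on day 3, with most of the shrinkage in the cultures without doxycycline. Bcl11a was higher with doxycycline on day 1 and lower on day 3. No group had more than 2 arrays, so single arrays were not tested for standing apart.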

How the results depend on the processing

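The counts of calls per comparison, the changes absent on day 1, the ES-high and MEF-high counts and the named changes were recomputed under those of 26 settings that bear on them; counts by detection, by arm and of reversals were not. Settings for day 6, for ES cells against wild MEFs and for part of the comparison with tamoxifen were added after seeing the data. With Feature Extraction's own log ratio, whose median day 3 change was -0.109 on the log2 scale, the counts at 2-fold were 4198 higher and 3107 lower on day 3, 2697 and 1434 on day 1, 2183 and 1768 for the difference between the days, 3648 and 3127 on day 6, and 3741 lower with tamoxifen. The same ratio gave 376 rises and 459 falls absent on day 1, so that falls led among them. It also gave 3052 ES-high probes with 1133 rising on day 3, and 1296 falling MEF-high probes. The series matrix, with 20183 probes tested, gave 6272 probes higher and 7123 lower on day 3, 6386 and 7675 with tamoxifen, and 6145 and 6258 on day 6, so that lower calls led. From it the difference was called upwards for 4447 probes and downwards for 4883, and at 2-fold for 1622 and 1239. It gave 388 rises and 360 falls absent on day 1, and 752 of 1908 ES-high probes rising. Changes absent on day 1 numbered 301 rises and 118 falls at the narrower bound, and 1286 and 816 at 2-fold. The difference for Z00048889-1 was -0.11 in both alternatives to the scanner intensities. The cause of the shifts between scalings was not tested. Leaving out single arrays gave 9261 to 9396 probes higher and 7768 to 7887 lower on day 3, 2680 to 2700 and 1478 to 1489 at 2-fold, and 670 to 738 rises and 335 to 398 falls absent on day 1. Deviations of Dox+ and Dox- samples with the same replicate number correlated at -0.342 on day 3 and -0.294 on day 1. The values were 0.0442 on day 3 with tamoxifen and 0.105 on day 6. Equal numbers thus did not deviate together on days 3 and 1 without tamoxifen, and the source of the negative values was not tested. With the replicate number as a block, 10223 probes were higher and 8867 lower on day 3. Slide as a block was not run, since slide and doxycycline coincide within a day. Probes near background limit what could be detected.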
